A study of Mus musculus with 4 samples.

Results

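The genes described here are 9 genes of the motile cilium and of the ependymal cells that carry it in the spinal cord: *Foxj1*, *Rsph1*, *Tekt1*, *Tekt4*, *Ak7*, *Hydin*, *Spef2*, *Spag17* and *Spag6*. They were found by name in the gene annotation of the arrays, which held 30222 names, and all of their probes were taken, 14 of 39429. A probe without a gene name is listed there under its own name and is counted below among all genes. The RNA was that of lumbar cord slices (segments L4 to L5). The donors were outbred male ICR mice, a few weeks old, killed 7 days after ligation of part of the sciatic nerve (PSL), an injury that leaves the hindpaw hypersensitive to touch. The mice had either been adrenalectomized (ADX+PSL), which removes the source of corticosterone, and given saline to drink, or had their adrenals exposed only (sham+PSL), so that all 4 groups carried the nerve ligation and none was uninjured. Slices were taken at ZT10 or at ZT22, hours after lights on, the times at which corticosterone of sham+PSL mice was high and low. Each combination of operation and time was measured on 1 array, 4 in all, and the number of mice behind each RNA and the side of the cord were not given in the sources used here.

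Motile cilia beat to move fluid, and in the cord they stand on the ependymal cells around the central canal. Their shaft, the axoneme, is a ring of paired microtubules around a central pair, with dynein arms as motors and radial spokes that link the ring to the centre. *Foxj1*, a forkhead transcription factor, switches on the genes of this structure, together with the RFX factors, which also act on genes of the immotile primary cilium.

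A level is the deposited intensity of a probe in arbitrary units, which the authors had made comparable between arrays by quantile normalisation. A probe was measured on an array where the image analysis called it well above background, as it did for 65.1% to 70.1% of all probes. With 1 array per condition a ratio of 2 arrays has no replicate and carries no p-value. The operations, with 2 arrays each, were also compared by a limma fit over all genes, whose spread between the arrays of an operation includes that between the time points and may be technical. The error beside a log2 ratio is the spot error, the image software's estimate for the measurement of the spots. It leaves out differences between mice and between slices. Its median was 0.20 for a log2 ratio of 2 arrays, over all probes measured on both.

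Of the 14 probes, 10 were measured on all 4 arrays, that of *Ak7* on 3, and 3 on none (1 probe of *Hydin* and both of *Spag17*). Of the 22 markers of ependymal cells on the array, 21 were measured on all 4 arrays, among them *Ccdc153*, *Tmem212* and *Cd24a*. *Sntn* was not above background on any. Over all genes it was 19061 of 30222 that were measured on all 4 arrays. With most genes measured in this way, the count cannot check whether the genes described here report ependymal cells. In bulk RNA, fewer cells of a type and less RNA per cell cannot be told apart. The sham+PSL array at ZT22 stood apart in the red cell genes, whose summed level was 25029 there, 143205 on the other sham+PSL array and 102119 and 96469 on the ADX+PSL arrays, and the comparison of operations is given below with and without it.

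The promoters are shown first because the genes share letters there that the choice of genes did not use. RefSeq (GRCm38.p6) gave a window from 250 bases before to 50 bases after the transcript start for 7 of the 9 genes, all but *Foxj1* and *Rsph1*. The RFX half-site, a core of the letters bound by RFX factors, which reads GTTGCC, or GGCAAC where it lies on the other strand, was in the windows of 5 of the 7 (71.4%), against 4111 of all 32851 windows of this length (12.5%) and 3821 of 27025 genes (14.1%). The stretches are printed 5′ to 3′ along the gene's strand, with the half-site in capitals, and hold the start except that of *Spag6*, which lies wholly after it.
*Tekt1* (chr11:72361854-72362002, minus strand): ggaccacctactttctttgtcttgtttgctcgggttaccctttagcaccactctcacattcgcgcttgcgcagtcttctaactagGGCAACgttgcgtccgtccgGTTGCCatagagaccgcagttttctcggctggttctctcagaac
*Tekt4* (chr17:25471470-25471618, plus strand): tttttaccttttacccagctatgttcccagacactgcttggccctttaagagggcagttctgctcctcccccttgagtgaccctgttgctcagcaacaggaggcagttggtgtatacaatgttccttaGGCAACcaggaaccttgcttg
*Hydin* (chr8:110266857-110267005, plus strand): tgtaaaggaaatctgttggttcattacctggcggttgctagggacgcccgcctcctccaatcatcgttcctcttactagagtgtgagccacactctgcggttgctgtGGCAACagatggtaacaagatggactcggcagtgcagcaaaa
*Spef2* (chr15:9748840-9748988, minus strand): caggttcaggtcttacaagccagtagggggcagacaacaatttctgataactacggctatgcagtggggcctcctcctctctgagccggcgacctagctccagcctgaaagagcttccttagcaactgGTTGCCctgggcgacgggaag
*Spag6* (listed by RefSeq as *Spag6l*, chr16:16829314-16829343, minus strand): tccggttgctgtcgGTTGCCctggagacgc

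The 6 half-sites lay close to the start. *Tekt1* held a pair, which began 35 and 15 bases before the start on opposite strands, and that of *Hydin* began 13 bases before it. Those of *Tekt4* and *Spef2* began at base 9 and that of *Spag6* at base 35, counted from the start. The core of the forkhead site (TGTTTA, or TAAACA on the other strand) was in 2 of the 7 windows (28.6%), *Ak7* at 131 and *Spag17* at 230 bases before the start, against 13.4% of all windows and 15.1% of genes. No gene of the 7 held both sets of letters. Such a match describes letters and is no evidence of binding.

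**Figure D1:**
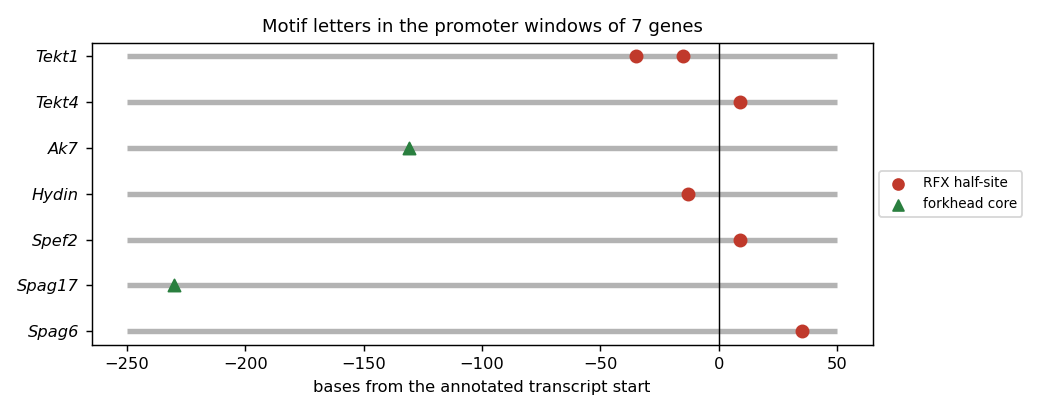
Letters of the RFX half-site (circles) and of the forkhead core (triangles) in the promoter windows of the 7 genes that have one, by distance in bases from the annotated start (vertical line). All 6 half-sites lie within 35 bases of the start, and both forkhead cores lie over 100 bases before it.

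In the other cilium genes, which were held in lists by structure, the share with the half-site differed from list to list. The 4 lists of axoneme genes together held it in 21 of 47 genes with a window (44.7%), the dynein assembly factors in 4 of 4, the tektins and other proteins of the tubule lumen in 9 of 16 (56.2%), the spoke, central pair and nexin proteins in 6 of 13 (46.2%), and the axonemal dyneins in 2 of 14 (14.3%). The transport genes of the primary cilium held it in 13 of 27 (48.1%). It was in 8 of 13 regulators of multiciliated cells (61.5%) and in 7 of 20 ependymal markers (35.0%). The markers of other cells ran from none of the 8 meningeal fibroblast, 6 microglial, 6 endothelial and 3 Schwann cell genes with a window, through 1 of 7 oligodendrocyte genes (14.3%), 1 of 6 genes of neurons that contact the cerebrospinal fluid (16.7%), 2 of 7 neuronal genes (28.6%) and 3 of 9 astrocyte genes (33.3%), to 2 of 4 both for red cells and for the choroid plexus.

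The arrays measured these genes through single 60-base probes, placed on mm9 by the deposited annotation. The first 30 bases of those on which the comparisons below turn most are given to show what was hybridised.
*Foxj1* (A_51_P456870, chr11:116192214-116192273, minus strand): ggagagactaatatagtgaatgtagttata
*Rsph1* probe 1 (A_55_P2044684, chr17:31391969-31392028, minus strand): ctcttagctgttaagttgttttttcggtta
*Rsph1* probe 2 (A_51_P373901, chr17:31410354-31410515, minus strand): ggacacatatgaaggaagctatgagtttgg
*Tekt1* probe 1 (A_55_P2132024, chr11:72158231-72158290, minus strand): catccgcgcagaggccatctgctgatagga
*Tekt1* probe 2 (A_55_P2111990, chr11:72158314-72158373, minus strand): tatatcgaccaggtgctgtgtatggagatg
*Ak7* (A_52_P246703, chr12:107004924-107006761, plus strand): ctacttcgacgagcttgaaattcacccgat

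The second *Rsph1* probe and the *Ak7* probe span more of the genome than their length, so that they cross an intron, while the other 4 do not. Probe 1 is the one with the higher mean level.

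*Foxj1*, the regulator of the programme, stood at 770 (ZT10) and 648 (ZT22) on the sham+PSL arrays and at 907 (ZT10) and 804 (ZT22) on the ADX+PSL arrays. Both ADX+PSL arrays lay above both sham+PSL arrays, but the lowest of the former was only 1.04-fold over the highest of the latter. The log2 difference between the means of the operations was 0.27 (spot error 0.14, 1.21-fold), and the gap of 0.06 between the nearest arrays was within its spot error of 0.20.

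*Rsph1*, a protein of the radial spoke head, gave the clearest separation. Its probe 1 stood at 508 and 573 on the sham+PSL arrays (here and below ZT10, then ZT22) and at 862 and 759 on the ADX+PSL arrays, a log2 difference of 0.58 (spot error 0.14, 1.5-fold). Its probe 2 stood at 95.7 and 103 on the sham+PSL arrays and at 191 and 185 on the ADX+PSL arrays, a log2 difference of 0.92 (spot error 0.15, 1.89-fold). With both probes the ADX+PSL arrays stood clear of the sham+PSL arrays, by 1.32-fold and 1.8-fold at the nearest, which was more than the spot error of the gap. At ZT10 probe 2 fell just short of 2-fold (log2 ratio 1.0, spot error 0.21), and at ZT22 its log2 ratio was 0.85. These values depended on the processing. With normexp background correction of the mean signal they were 0.70 and 0.56, and without background correction 0.66 and 0.54. With arrays scaled by their 75th percentile the ZT10 value was 1.03.

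*Tekt1* and *Tekt4* encode tektins, filaments of the microtubule wall. *Tekt1* probe 1 stood at 241 and 284 on the sham+PSL arrays and at 345 and 374 on the ADX+PSL arrays, a log2 difference of 0.46 (spot error 0.15, 1.37-fold). Probe 2 stood at 229 and 231 on the sham+PSL arrays and at 281 and 307 on the ADX+PSL arrays, a log2 difference of 0.35 (spot error 0.15, 1.28-fold). The 2 probes placed the arrays in the same order, sham+PSL at ZT10 lowest and ADX+PSL at ZT22 highest, and the gap between operations was 1.22-fold with each.

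*Tekt4* was the exception. It stood at 308 and 232 on the sham+PSL arrays and at 341 and 248 on the ADX+PSL arrays, so that the operations overlapped and the log2 difference of 0.12 was within its spot error of 0.15. Here the arrays were ordered by time, both ZT10 arrays over both ZT22 arrays.

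*Ak7*, an adenylate kinase of the axoneme, was dim and stood apart on 1 array. On the sham+PSL arrays it stood at 18.7 (ZT10) and, not well above background, at 17.2 (ZT22). On the ADX+PSL arrays it stood at 77.7 (ZT10) and 27.5 (ZT22). At ZT10 ADX+PSL was 4.15-fold over sham+PSL (log2 ratio 2.05, spot error 0.33), and at ZT22 it was at least 1.5-fold higher, against the lowest level called well above background on the sham+PSL array. The 4.15-fold value depended on the background correction: with normexp correction of the mean signal in place of the deposited one the log2 ratio was 0.77, and without background correction it was 0.76.

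*Hydin*, *Spef2*, *Spag6* and *Spag17* belong to the central pair and the projections on it. *Hydin* stood at 74.0 and 68.9 on the sham+PSL arrays and at 79.4 and 86.5 on the ADX+PSL arrays, a log2 difference of 0.22 (spot error 0.16) with a gap of 1.07-fold. *Spef2* probe 1 stood at 6256 and 8316 on the sham+PSL arrays and at 9339 and 9867 on the ADX+PSL arrays, a log2 difference of 0.41 (spot error 0.14). For *Hydin* and this *Spef2* probe, as for *Spag6* below, the gap between the nearest arrays was within the spot error.

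*Spef2* probe 2 stood at 94.7 and 119 on the sham+PSL arrays and at 168 and 149 on the ADX+PSL arrays, a log2 difference of 0.57 (spot error 0.15). These levels were far under those of probe 1, which as the brightest represents *Spef2* in the counts by gene. Whether probe 1 reads *Spef2* alone was not tested. *Spag6* stood at 125 and 129 on the sham+PSL arrays and at 178 and 145 on the ADX+PSL arrays, a log2 difference of 0.34 (spot error 0.15). Each had both ADX+PSL arrays on top, by 1.25-fold for *Spef2* probe 2 and 1.12-fold for *Spag6* at the nearest, and in both the ADX+PSL array at ZT10 was the highest. *Spag17* was not above background on any array, at levels of 5.15 or less, and no ratio was formed. The accession of the *Spag6* probe now belongs to *Spag6l*, and its signal may be shared with the near copy that now carries the name *Spag6*.

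**Figure D2:**
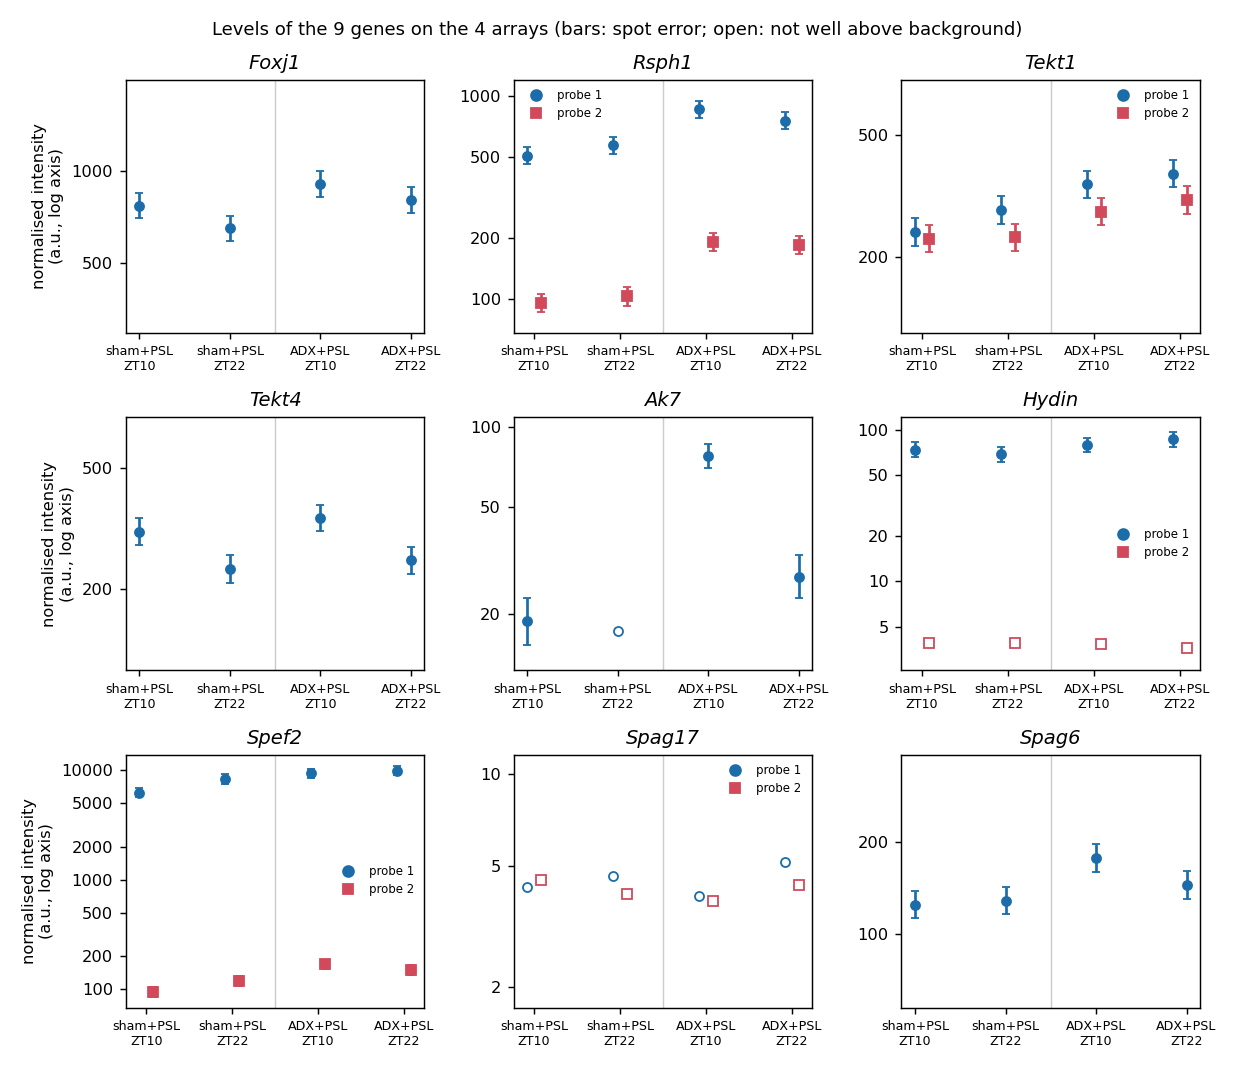
Normalised intensity (arbitrary units, log axis) of each probe of the 9 genes on the 4 arrays, with the spot error as bars; open symbols were not well above background. For *Rsph1* and *Tekt1* both probes lie higher on the ADX+PSL arrays (right of the grey line) than on the sham+PSL arrays, while *Tekt4* follows the time point and *Spag17* is at background throughout.

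The first comparison asked how removal of the adrenals bore on these genes in the injured mice. Of the 7 genes measured on all 4 arrays, by their brightest probe, 6 had both ADX+PSL arrays above both sham+PSL arrays and none had both below. Over all 19061 genes measured in this way, 19.2% lay above and 15.6% below. By probes it was 9 of 10, against 18.9% of all probes. The gap was larger than its spot error in 2 of the 7 genes, *Rsph1* and *Tekt1*, and in 3.50% of all genes. In the limma fit of operation over the 19061 genes, none of the 7 passed an adjusted p of 0.05, and the smallest adjusted p was 0.444, that of *Rsph1* (log2 difference 0.58, SE 0.13). At an unadjusted p under 0.05 there were 2, *Rsph1* and *Tekt1*, both higher in ADX+PSL, against 4.40% of all genes in that direction. Only 5 of all genes (0.0262%) passed the adjusted threshold, the meningeal fibroblast genes *Col1a1* and *Slc6a13* and, named after their values were seen, *Ogn* and *Opn4*, all lower, and *Gm3219*, higher. No gene passed it with any of the 4 arrays left out.

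The shift was small in size. The median log2 difference between the means of the operations was 0.34 over the 7 genes, from 0.12 to 0.58, and 0.01 over all genes, of which the middle part from the lower to the upper quartile ran from -0.09 to 0.12. At ZT10 the median log2 ratio of ADX+PSL over sham+PSL was 0.51 over 8 genes, and all 8 were higher in ADX+PSL (50.8% of all genes). At ZT22 it was 0.31 over 7 genes, and all 7 were higher (52.0% of all genes). The 2 comparisons use different arrays. A gene with both ADX+PSL arrays above both sham+PSL arrays is higher in each of them by definition. This held for most of these genes, so the counts are no separate support. The medians over all genes were 0.00 and 0.01.

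The study's screen set a 2-fold limit on the ratio and a limit on a Z-score, of which only the former was used here. By the ratio, *Ak7*, 1 of the 8 genes, was higher in ADX+PSL at ZT10, against 0.713% of all genes higher and 1.38% lower. At ZT22 none of the 7 was, against 0.751% higher and 1.10% lower. The share of higher among the genes past 2-fold at ZT10 was 34.1%, and 44.2% when arrays were scaled by their 75th percentile instead.

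**Figure D3:**
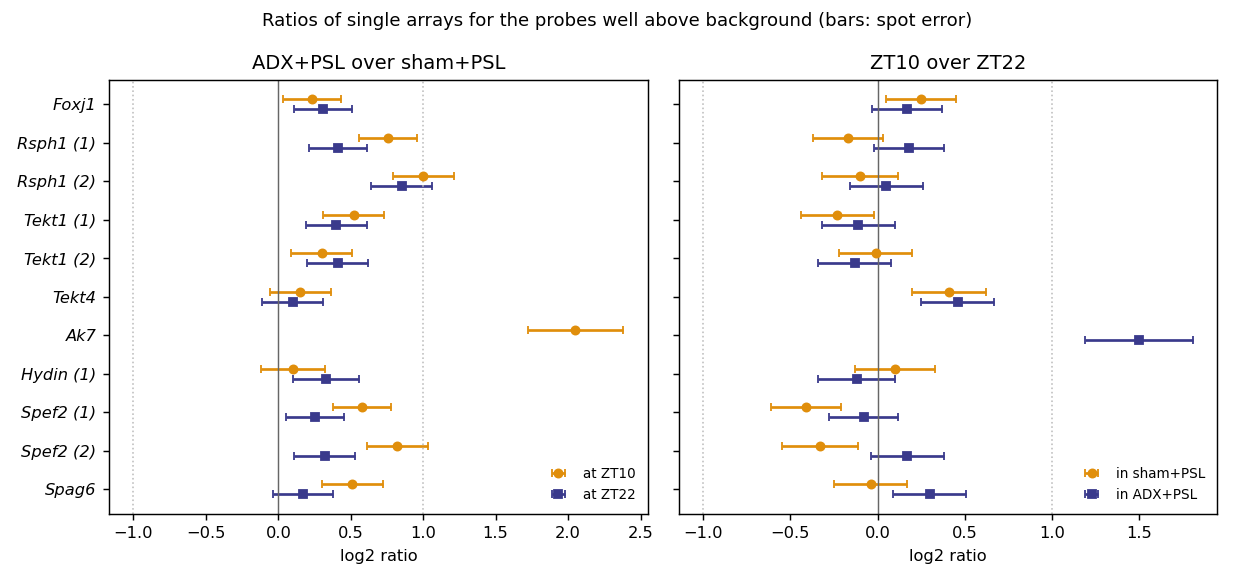
Log2 ratios of 2 arrays, with their spot errors as bars, for the probes measured on at least 3 arrays; dotted lines mark 2-fold, and the number in brackets is the probe. On the left, every ratio of ADX+PSL over sham+PSL lies above 0, from 0.10 for *Hydin* at ZT10 and *Tekt4* at ZT22 to 2.05 for *Ak7*; on the right, the ratios of ZT10 over ZT22 lie on both sides of 0.

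The second comparison set ZT10 against ZT22 within each operation, the contrast on which the study screened for genes that follow corticosterone. In sham+PSL, no gene of the 7 passed 2-fold (background 0.861% higher and 1.23% lower), and the median log2 ratio of ZT10 over ZT22 was -0.04. *Spef2* was lower at ZT10, with log2 ratios of -0.41 and -0.33 by its 2 probes (spot errors 0.20 and 0.22), and *Tekt4* was higher, with 0.41 (spot error 0.21). *Foxj1* had a log2 ratio of 0.25 (spot error 0.20). Each of these ratios rests on the sham+PSL array at ZT22 named above.

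In ADX+PSL, the median log2 ratio was 0.18 over 8 genes, and *Ak7* alone passed 2-fold, with a log2 ratio of 1.5 (spot error 0.31, 2.82-fold), against 0.471% of all genes higher and 1.03% lower. This value too was smaller with other background corrections, 0.64 with normexp and 0.60 without correction. *Tekt4* had a log2 ratio of 0.46 (spot error 0.21), close to that in sham+PSL. The *Spef2* probes gave -0.08 and 0.17, *Foxj1* 0.17 and *Spag6* 0.30 (spot error 0.21).

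Beyond the 9 genes, the other known parts of the motile axoneme were taken from lists of named proteins. Together they had 56 genes measured on all 4 arrays. Of these, 20 (35.7%) had both ADX+PSL arrays above both sham+PSL arrays, against 19.2% of all genes. In 5 (8.93%) both lay below, against 15.6% of all genes, and the median log2 difference was 0.11. The mean level was higher in ADX+PSL for 41 of the 56 (73.2%, and 52.0% of all genes). At ZT10 the log2 ratio of ADX+PSL over sham+PSL was above 0 in 44 of 59 genes (74.6%, and 50.8% of all genes), with a median of 0.20. At ZT22 it was above 0 in 34 of 56 (60.7%, and 52.0% of all genes), with a median of 0.06.

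Of the axonemal dyneins, the motor chains and their docking proteins, 7 of 19 (36.8%) lay above and 2 (10.5%) below. The shares of all genes were 19.2% and 15.6%, here and for the lists that follow. The median log2 difference was 0.22. The 7, named after their values were seen, were *Dnahc5*, *Dnahc6*, *Dnahc7a*, *Dnahc9* and *Dnahc11*, which encode heavy chains, and *Ccdc114* and *Armc4*, which encode docking proteins. *Dnahc9* stood at 82.2 and 84.1 on the sham+PSL arrays and at 125 and 97.8 on the ADX+PSL arrays. *Dnahc7a*, with levels of 195, 203, 337 and 236 in the same order, has a near copy in *Dnahc7b*, so that its signal is uncertain. The 2 below were *Dnaic2* and *Dnahc17*, and *Dnahc17* passed 2-fold at ZT10 (log2 ratio -1.09). The intermediate chain gene *Dnaic1*, among the brightest of the list, differed by -0.03.

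The assembly factors, which fold and join dynein arms in the cytoplasm, had 3 of 7 above and none below, with a median of 0.24. *Lrrc50*, a symbol since replaced by *Dnaaf1*, stood at 22 and 23.4 on the sham+PSL arrays and at 47.5 and 26.3 on the ADX+PSL arrays, and passed 2-fold at ZT10 (log2 ratio 1.11). *Dyx1c1* differed by 0.24. *Spag1* passed 2-fold at ZT22 (log2 ratio 1.03), where its sham+PSL level of 278 was the lowest of the 4 arrays, while the other sham+PSL array had 425 and the ADX+PSL arrays 412 and 567.

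Of the spoke, central pair and nexin proteins, 6 of 16 (37.5%) lay above and 3 (18.8%) below, the latter near the share of all genes (15.6%). Their median was -0.03. *Rsph9*, a partner of *Rsph1* in the spoke head, stood at 1179 and 694 on the sham+PSL arrays and at 1328 and 1381 on the ADX+PSL arrays, whereas *Rsph4a*, also of the spoke head, differed by 0.06. *Rsph3a*, of the spoke stalk, lay below, at 396 and 271 against 256 and 249. These 3 were named after their values were seen, and the brightest genes of the list, *Lrrc48*, *Gas8* and *Nme5*, differed by -0.07, -0.06 and 0.15.

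The tektins and proteins of the tubule lumen had 4 of 14 above and none below, with a median of 0.08. Of the other tektins, *Tekt2* differed by 0.23 with overlapping arrays, *Tekt5* by 0.07, and *Tekt3* was not above background. Among the regulators of multiciliated cells 2 of 9 (22.2%) lay above and 2 (22.2%) below, with a median of 0.02. Both counts were near the shares of all genes, 19.2% and 15.6%. *Rfx1* differed by 0.22, *Rfx3* by 0.01 and *Rfx4* by -0.18, with spot errors of 0.14 to 0.17. *E2f4*, a cell cycle factor also needed for multiciliated cells, passed 2-fold lower at ZT10 (log2 ratio -1.05), while its log2 ratio at ZT22 was 0.15. It stood at 133 and 58.4 on the sham+PSL arrays and at 64.4 and 65.0 on the ADX+PSL arrays, so that its ZT10 over ZT22 log2 ratio in sham+PSL was 1.19. *Ccno*, a cyclin of multiciliated cells, lay below with a log2 difference of -0.42. *Gm6320*, now *Mcidas*, the brightest of the list, differed by 0.02. It stood at 45755 and 51068 on the sham+PSL arrays and at 49310 and 49046 on the ADX+PSL arrays. The next brightest, *Rfx4*, stood at 626 or less, and whether the *Gm6320* probe reads that gene alone was not tested. With normexp correction none of the 9 regulators lay above.

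The genes listed as markers of ependymal cells, several of them ciliary too, had a median over both times close to that of all genes. Of 21 measured, 3 (14.3%) lay above and 3 (14.3%) below, shares under those of all genes, and the median log2 difference was 0.04. The times differed in direction: at ZT10 the median log2 ratio of ADX+PSL over sham+PSL was 0.18, with 15 of 21 above 0, and at ZT22 it was -0.10, with 6 of 21 above 0. Their summed level was 33454 and 36594 on the sham+PSL arrays and 34103 and 31385 on the ADX+PSL arrays. That sum was led by its brightest genes, at ZT10 in sham+PSL *Cd24a* (7912), *Cyp2j9* (4754) and *Elovl7* (4740). Counted by gene, the mean level was higher in ADX+PSL for 13 of 21 (61.9%, and 52.0% of all genes). *Cd24a*, *Tm4sf1* and *Rarres2* lay below, by -0.23, -0.28 and -0.43, and *1110017D15Rik*, *Nnat* and *Meig1* above, by 0.22, 0.21 and 0.15, all but *Cd24a* named after their values were seen. The transport genes of the primary cilium, which nearly all cells of the cord may carry, had 9 of 31 (29%) above and 1 (3.23%) below. The shares of all genes were 19.2% and 15.6%, and the median of the transport genes was 0.07. The difference between these lists and the 9 genes was not tested.

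**Figure D4:**
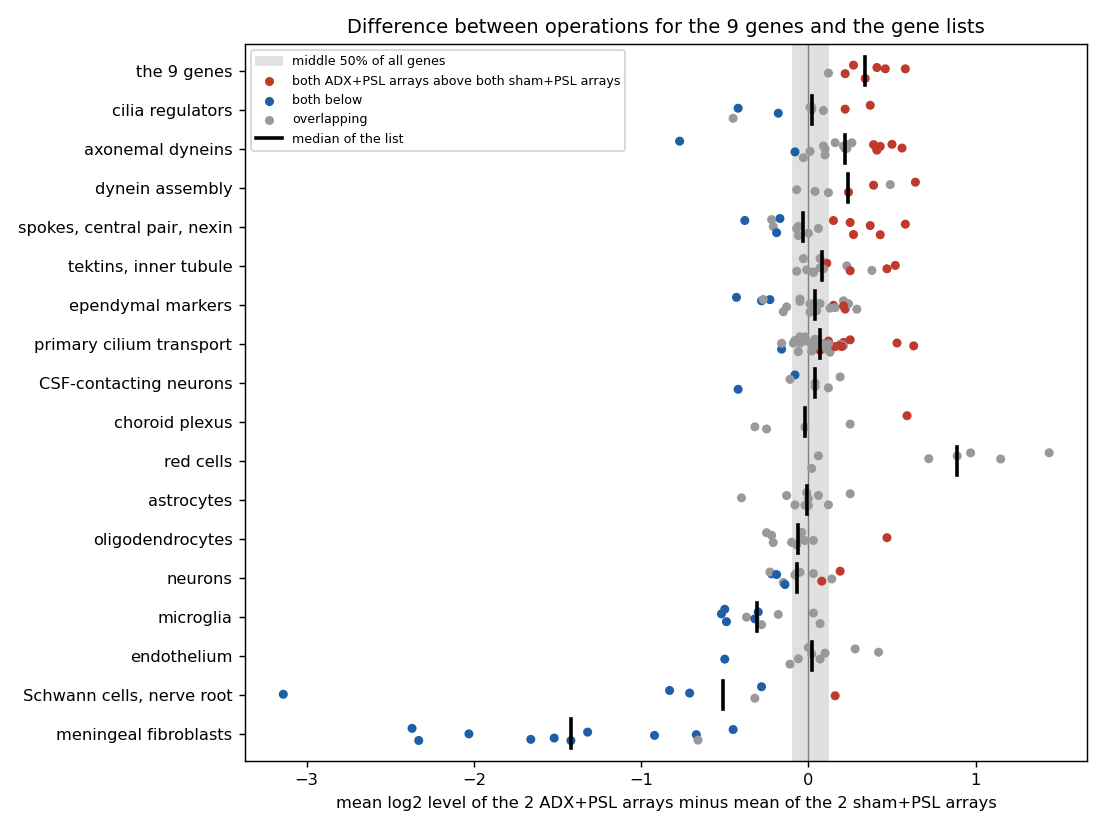
Mean log2 level of the 2 ADX+PSL arrays minus that of the 2 sham+PSL arrays for each gene measured on all 4 arrays, by list; black bars are medians and the grey band is the middle of all genes, from -0.09 to 0.12. The 9 genes (7 measured) have a median of 0.34, the dynein assembly factors and the dyneins of 0.24 and 0.22, the red cell genes, which overlap between operations, of 0.89, and the meningeal fibroblast genes of -1.42.

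Markers of other tissue also differed between the arrays. Of the meningeal fibroblast genes, 10 of 11 lay lower on both ADX+PSL arrays (15.6% of all genes), with a median log2 difference of -1.42. Their summed level was 95335 and 124842 on the sham+PSL arrays and 82516 and 65340 on the ADX+PSL arrays. Most of these sums came from *Ptgds*, at 75819 and 106596 against 75420 and 57582. None of the genes of this list was at background throughout. *Col1a1* stood at 1809 and 1574 on the sham+PSL arrays and at 336 and 318 on the ADX+PSL arrays. Of the Schwann cell and nerve root genes 4 of 6 lay lower (median -0.51, summed level 4058 and 3889 against 3306 and 2713), with *Prx* at 466 and 247 on the sham+PSL arrays and at 40.9 and 36.3 on the ADX+PSL arrays and *Pmp2* not above background on any. Of the microglial genes 5 of 10 lay lower (median -0.31, summed level 88324 and 112489 against 89081 and 97132). The part of these differences in the values of the cilium genes was not tested.

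Without the sham+PSL array at ZT22, which stood apart in the red cell genes, 7 of 8 of the cilium genes lay higher on both ADX+PSL arrays than on the sham+PSL array left (background 34.9%), and the median log2 difference was 0.47. Without the sham+PSL array at ZT10 it was 7 of 7 (background 37.5%), without the ADX+PSL array at ZT10 6 of 7 (35.5%), and without that at ZT22 7 of 7 (34.5%). The 6 genes that lay above on all 4 arrays must lie above with any array left out. These counts could therefore not fall below 6 and are no check of the separation. The astrocyte genes had none of 10 above and none below, with a median of -0.01, and the oligodendrocyte genes had a median of -0.06. Of the 8 choroid plexus genes, 5 were measured on all 4 arrays, with 1 above, none below and a median of -0.02. *Ttr*, of the same list, was not above background on any array.

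The genes whose profile over the 4 arrays lay nearest to the mean of the 7 measured genes (-0.18, -0.16, 0.23 and 0.11 after centring on the log2 scale, the sham+PSL arrays before the ADX+PSL arrays) were *Crebzf*, at a Euclidean distance of 0.0149, *Cfp* (0.0161) and *Ppil6* (0.0196), followed by 2 probes without a gene name. The 7 genes themselves lay at distances from 0.135 (*Spag6*) to 0.443 (*Tekt4*). With 4 arrays such nearness is common: 1.72% of the 19061 genes lay as near as *Spag6*, and 60.2% as near as *Tekt4*.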

How the data were processed

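Agilent 44K 1-colour arrays were hybridised with RNA of 4 conditions, 1 array each. The authors deposited spot intensities of Feature Extraction (version 10.7.1.1 per the file headers, 9.5.1.1 per the submitters' notes) with well-above-background flags, and a table of linear intensities quantile-normalised over the 4 arrays, which gave the levels here. Of 44397 spots per array 1377 were controls, and the rest made up 39429 probes. No spot was saturated. Precision is limited by the number of arrays. Log2 ratios were formed for probes measured on both arrays. A gene was represented by its brightest probe, and calls used a ratio of 2 or 0.5. Gene symbols are those of the array, and 13 of the 14 probes of the 9 genes carried an accession with a RefSeq symbol.

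The members, the 17 gene lists and the alternatives were chosen with earlier results of these data known. Genes named are the 9 members and, chosen from those that a rule selected, genes of the lists (of each the 3 brightest and those past 2-fold, up to 3 per comparison) and the 5 nearest profiles. Others, such as *Rfx3*, *Ccno*, *Tekt2*, *Tekt3*, *Ccdc153*, *Tmem212*, *Sntn*, *Pmp2*, *Slc6a13* and *Ttr*, fell outside the rule and were named after their values were seen. Alternatives were own quantile normalisation over 4 or 2 arrays, a shift by the 75th percentile, normexp background correction (offset 50), the uncorrected mean signal, other filters, removal of outlier spots, the mean over probes and, chosen after seeing the data, each array left out. A limma fit of operation (2 arrays against 2, Benjamini-Hochberg adjustment), with and without the time point as a block, was also added after seeing the data. Python 3.11.15, numpy 2.4.6, pandas 2.3.3, R 4.3.3 and limma 3.58.1 were used, and the steps were tested on simulated data.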

Additional observations from a re-analysis of the deposited data

Results flagged for a closer look

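In 3 of the genes named from the lists, the ratio of ZT10 over ZT22 was 1.5-fold or more in one direction in sham+PSL and in the other direction in ADX+PSL. The difference was not tested, since each condition had 1 array. *Enkur*, a protein of the ciliary tubule lumen, had a log2 ratio of -1.15 with sham operation and of 0.81 after adrenalectomy, a difference of -1.96. *Hbb-b2*, a globin gene of red cells, had log2 ratios of 3.10 and -0.80, a difference of 3.90. *Lum*, a matrix gene of meningeal fibroblasts, had log2 ratios of 1.18 and -0.76, a difference of 1.94.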

How the results depend on the processing

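None of the 2-fold values of the 9 genes changed sign under any alternative run. Of the smaller ratios for time in sham+PSL, that of *Tekt1* probe 2 went from -0.01 to 0.02 with normexp and with the mean signal. That of *Spag6* went from -0.04 to 0.00 with normexp. Both moves were within the spot error. The count of genes with both ADX+PSL arrays above both sham+PSL arrays was 5 to 7 under the alternatives on the 4 arrays. With each array left out it was 6 to 7, where the 6 genes above on all 4 arrays could not drop out. Of 334 values of single probes, 324 moved by less than the spot error, and the other 10 moved under normexp correction (5) or the uncorrected mean signal (5). These 10 were values of *Ak7*, *Rsph1* probe 2 and *Spef2* probe 2. The median log2 ratio of ADX+PSL over sham+PSL at ZT10, 0.51, was 0.41 with normexp, 0.40 with the mean signal and 0.41 with the mean over probes. The median log2 difference between operations, 0.34, was 0.25 with normexp and 0.23 with the mean signal, and 0.28 to 0.47 with each array left out (0.47 without sham+PSL at ZT22, where *Ak7* enters). The count of 1 gene 2-fold higher, in ADX+PSL over sham+PSL at ZT10 and in ZT10 over ZT22 of ADX+PSL, was 0 in each with normexp, the mean signal, the mean over probes, and probes measured on all 4 arrays. Over all genes, fewer passed 2-fold with normexp: for ZT10 over ZT22, 75 against 169 higher and 93 against 242 lower in sham+PSL, and 35 against 91 and 51 against 200 in ADX+PSL; for ADX+PSL over sham+PSL, 52 against 143 and 100 against 276 at ZT10, and 41 against 144 and 89 against 211 at ZT22. With the mean signal these counts were 72, 84, 31, 47, 48, 95, 41 and 84. The cause was not tested. No paired analysis was possible because each condition had 1 array and the labels number no replicates. With the time point as a block, the limma fit of operation called none of the 7 genes (smallest adjusted p 0.373), and none was called under the other normalisations or with an array left out (0.409 to 0.918). At an unadjusted p under 0.05 it had 2 to 3 of the genes on the 4 arrays and 1 to 3 with an array left out (1 without sham+PSL at ZT10). Dim probes limit what can be said of *Ak7*, *Spag17* and *Lrrc50*.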
